A study of Rattus norvegicus with 6 samples.

Results

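The comparison set out here is that of 2 inhaled particles with each other: lungs of rats that had breathed ultrafine nickel oxide (Uf-NiO, NiO below) against lungs of rats that had breathed C60 fullerene, both taken 3 days after the end of exposure. Its members are 6 of the 23 arrays of the series: the 4 arrays of the group titled Lung_NiO_3days and the arrays at slide positions 1 and 2 of the group titled Lung_C60 Fullerene_3days. The C60 group came with 4 arrays, but its label gave n = 2, so positions 3 and 4 served as a check. All animals were male Wistar rats, 9 weeks old, exposed in a whole-body chamber for 6 hours a day on 5 days a week over 4 weeks. A clean air group (3 arrays at 3 days, per its label) was the study's negative control and NiO its positive control, and a second set of 4 lungs per group was taken at 33 days, called 1 month here. Lungs were perfused with saline, RNA of the whole right lung was labelled with Cy3, and each sample was read on a 1-colour rat oligonucleotide array. Because RNA came from whole lung, more cells of a type and more RNA per cell cannot be told apart in any of the values below. The p-values measure the spread between arrays, and nothing in the labels ties an array to a named animal.

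C60 fullerene is a cage of carbon atoms, and nickel oxide is a poorly soluble metal oxide whose fine particles are widely used to provoke lung inflammation in rodents. Particles that reach the alveoli are taken up by alveolar macrophages, which store them in lysosomes and, when activated, release proteases and chemokines. Chemokines of the CXC family that act on Cxcr1 and Cxcr2 recruit neutrophils, while many CC chemokines recruit monocytes, T cells and dendritic cells. Metal oxides can also engage the oxidative stress programme of the transcription factor Nrf2 and alter surfactant lipid in the alveoli.

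Each value is the log2 processed signal, less its own array's 75th percentile on that scale, so that 0 is the level of the 75th percentile and 1 unit is a doubling. Differences are NiO minus C60, with the standard error (SE) of the limma fit. A gene was called at a Benjamini-Hochberg adjusted p under 0.05. The spread came from 1 fit over all 21 arrays used, because 4 against 2 arrays have only 15 arrangements and an exact two-sided permutation test could not go below p = 0.0667. All arrays of a group were on a slide of their own. Group and slide therefore cannot be told apart.

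Several arrays stood apart. On the first principal component of the 9 arrays at 3 days (52.6 percent of variance), NiO arrays 2 and 3 lay at 96.4 and 107.9 and NiO array 4 at 18.9, while NiO array 1 lay at -26.7, next to the C60 arrays (-45 and -26.4) and the controls (-46.6 to -34.3). NiO arrays 2 and 3 also had the lowest raw 75th percentiles, 372.4 and 336.1, against 541.3 to 689 on the other 7. The negative control spots of C60 arrays 1 and 2 gave a net signal of 143.7 and 66.5, against 28.4 to 39.4 on the NiO and control arrays of that time, and 57.4 and 60.7 percent of their spots were well above background against 62.6 to 68 percent on the NiO arrays. C60 positions 3 and 4, left out of the fit, read 41.5 and 34 in the negative control spots. The part of these array differences in the results was not tested beyond the alternatives given.

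NiO and C60 lungs differed at 3 days in 1942 of 24971 genes tested (7.78 percent). Of these, 1263 (5.06 percent) were higher and 679 (2.72 percent) lower in NiO lungs, and 728 (2.92 percent) and 216 (0.865 percent) differed by at least 1 log2 unit. The arrays of the 2 groups did not overlap for 6326 genes (25.3 percent), with NiO above for 14.7 percent and below for 10.6 percent. Of the genes called higher, 461 (36.5 percent) were not well above background on either C60 array, and 54 of the lower ones (8 percent) were not on any NiO array. Median scaling of the arrays put 49.1 percent of calls on the higher side and quantile normalization 52 percent, against 65 percent here, while the median difference of all genes went from 0.06 to -0.10 and -0.04. Removing 1 array moved the count to 443 (C60 array 1) or 753 (C60 array 2), to 1108 (NiO array 2) or 1137 (NiO array 3), or to 7058 (NiO array 1; 28.3 percent, with 10.6 percent lower). With NiO arrays 2 and 3 both removed, 740 genes were called (2.96 percent), of which 635 were among the 1942. A fit of the 2 groups alone called 48 genes (0.192 percent; 0.164 percent higher and 0.028 percent lower), 46 of them among the 1942. All 4 C60 arrays gave 5946 calls (23.8 percent; 14.5 percent higher and 9.35 percent lower), which held 88.1 percent of the 1942. The counts of called genes in the gene lists below moved too. In the fit of the 2 groups 49 of these counts changed by over 1.5 times and 5 did not, in the fit of the 3 groups at 3 days 45 did and 9 did not, and with median scaling 23 did and 31 did not. Each list count is to be read beside the share of all genes called in the same fit. That share was 5.06 percent higher and 2.72 percent lower here. It was 14.5 and 9.35 percent with all 4 C60 arrays, and 28.3 percent either way without NiO array 1.

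**Figure D1:**
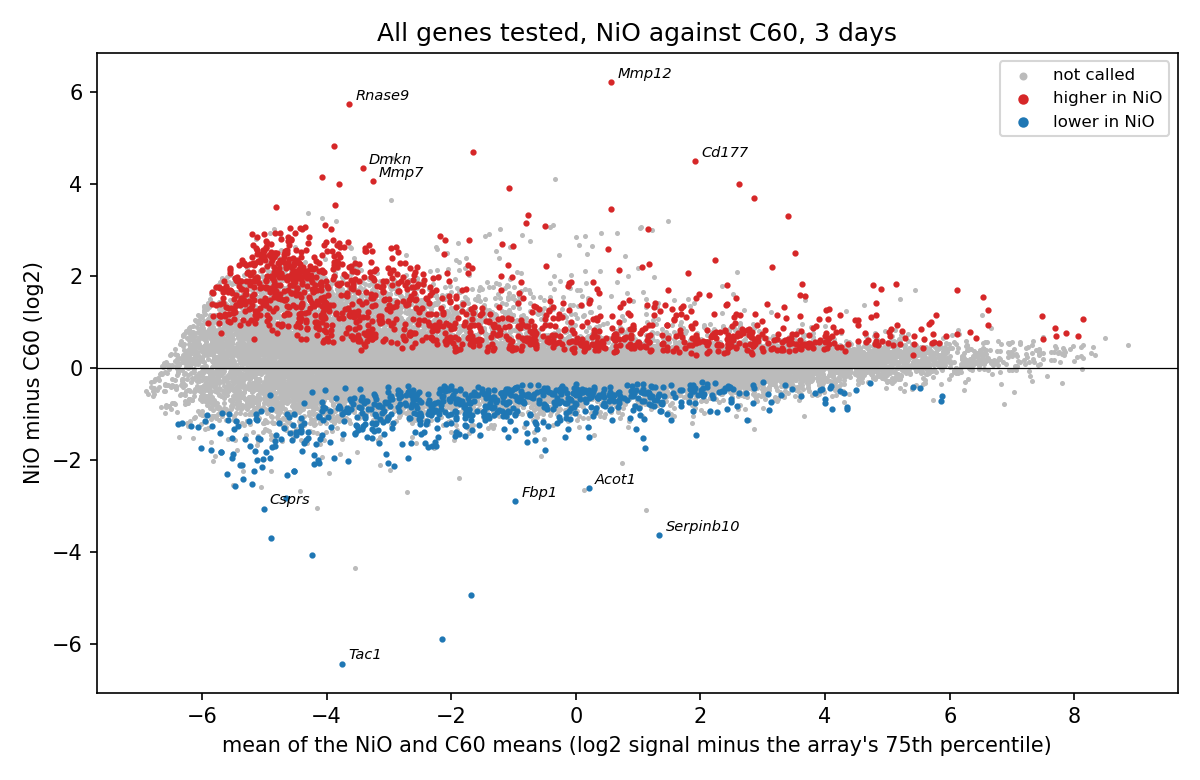
Each point is 1 of the 24971 genes tested, with the mean of the NiO and C60 group means on the x axis (log2 signal minus the array's 75th percentile) and the NiO minus C60 difference on the y axis (log2). Red points are the 1263 genes called higher and blue points the 679 called lower in NiO lungs. Mmp12 (6.21) and Tac1 (-6.43) mark the ends of the named range, and many of the red points lie at the dim end.

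Macrophage genes were prominent among those higher in NiO lungs. Mmp12, the macrophage elastase, read 3.05, 4.12, 3.87 and 3.67 on the 4 NiO arrays and -2.07 and -3.01 on the 2 C60 arrays. Every NiO array lay more than 5 log2 units above both C60 arrays, and the 3 clean air arrays (-2.80 to -2.72) lay between the C60 values. The difference was 6.21 (SE 0.69; limma adjusted p = 6.55e-05), and 0.00806 in the fit of the 2 groups alone. Trem2, a lipid-sensing receptor of macrophages, read 4.36, 4.84, 4.73 and 4.91 after NiO and 1.47 and 0.55 after C60 (difference 3.70, SE 0.39; limma adjusted p = 4.05e-05). Atp6v0d2, a subunit of the proton pump that acidifies lysosomes, read 1.08, 1.61, 0.39 and 0.46 against -3.19 and -2.89 (3.92, SE 0.35). The scavenger receptor gene Msr1 read 0.85, 1.51, 0.45 and 1.39 against -2.14 and -1.94 (3.09, SE 0.55). In these 3 genes too no NiO array came near the C60 arrays, and NiO array 1, which resembled the C60 arrays over all genes, was as high as the rest of its group or within 1 unit of it.

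Of 18 genes tested that mark lipid-laden macrophages, 9 were higher and 0 lower (median difference 0.51, against 0.06 over all genes). Besides Trem2 they included Gpnmb (1.72, SE 0.25), a glycoprotein of phagocytic cells, the fatty acid carrier gene Fabp5 (1.69, SE 0.18) and the galectin gene Lgals3 (1.54, SE 0.20). Lgals3 read 6.72, 7.38, 7.72 and 7.38 on NiO arrays and 5.72 and 5.80 on C60 arrays, with controls from 5.74 to 6.01. The mean of the list was 3.31 to 3.59 on NiO arrays, 2.67 and 2.70 on C60 arrays and 2.68 to 2.89 on control arrays, so that NiO alone stood off. The count was 4 without C60 array 1 and 4 without NiO arrays 2 and 3. Of 32 genes of lysosome acidification, hydrolases and cathepsins, 7 were higher and 0 lower, among them the cathepsin genes Ctsd (1.13, SE 0.17) and Ctsb (0.87, SE 0.16) and the pump subunit gene Atp6v1b2 (0.60, SE 0.13). That count was 13 with all 4 C60 arrays, 12 without NiO array 1 and 2 or 3 without C60 array 1 or 2. It was 3 with quantile normalization and 3 with median scaling. With all 4 C60 arrays 14.5 percent of all genes were called higher, and without NiO array 1 28.3 percent were called either way.

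Scavenger and phagocytic receptors split, with 3 of 12 higher (25 percent) and 1 lower (8.33 percent), against 5.06 and 2.72 percent of all genes. Higher were Msr1, the lipid receptor gene Cd36 (1.38, SE 0.37) and Scarb2 (0.52, SE 0.11), and the called-lower member was Vsig4, through which tissue macrophages bind complement fragments (-2.33, SE 0.58). Vsig4 read -6.39, -6.57, -4.39 and -5.86 on NiO arrays, well above background on 1 of the 4, and -3.64 and -3.30 on C60 arrays. Its call did not hold with normexp background correction (limma adjusted p = 0.228). The scavenger list had 1 gene called higher and 0 lower without C60 array 1, and the same without C60 array 2. With median scaling it had 1 called higher. Genes of alternative macrophage activation split as well (2 of 11 higher and 2 lower, 18.2 percent each). Arg1, which encodes the arginine-degrading enzyme arginase, read 4.23, 4.85, 5.13 and 4.81 against 2.20 and 2.32 (2.49, SE 0.25; limma adjusted p = 3.54e-05), and the controls (2.09 to 2.29) lay at the C60 level. The chitinase-like gene Chi3l1 was higher by 1.09 (SE 0.31). Fbp1, described with the other named lower genes, and the lipoxygenase gene Alox15 were the lower ones. Alox15 differed by -2.13 (SE 0.60), with C60 position 4 at -3.77, inside the NiO range of -4.53 to -3.02. The alternative activation list had 1 gene called higher and 1 lower without C60 array 1, and the same without C60 array 2. Spp1, the gene of osteopontin, a matrix protein made by activated macrophages, read 2.54, 2.66, 2.66 and 2.79 against -0.83 and 0.13 (3.02, SE 0.56). C60 positions 3 and 4 read 1.33 and 1.10 for it, and with all 4 C60 arrays the difference was 2.23. The labelled tissue was checked against markers, and all tested markers of alveolar type II (6), alveolar type I (5), club (3) and endothelial cells (4) were well above background on all 6 arrays. Among defining macrophage markers, 4 of 4 tested were well above background on all 6 arrays and 1 was called. That gene was Msr1, named above for the size of its difference. The mean of the 4, Msr1 included, was 2.30 to 2.67 on NiO, 1.58 to 1.86 on C60 and 1.64 to 1.90 on control arrays. It therefore does not speak for the other macrophage markers.

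Neutrophil genes gave a mixed picture. Cd177, a surface glycoprotein of neutrophils, read 4.40, 3.91, 4.03 and 4.33 on NiO arrays and -0.36 and -0.32 on C60 arrays, a difference of 4.50 (SE 0.53; limma adjusted p = 0.000107). Lcn2, an iron-scavenging protein of neutrophil granules and epithelium, read 5.26, 4.70, 4.98 and 5.32 against 1.60 and 1.91 (3.31, SE 0.43). The gap was wide in both, and the controls (-0.55 to -0.12 and 1.21 to 2.67) lay near the C60 arrays. In the list of neutrophil granule and surface genes these were the 2 genes called higher of 12 (16.7 percent, against 5.06 percent of all genes). The cathelicidin gene Camp was lower (-1.12, SE 0.28), the calprotectin genes S100a8 (-0.96, adjusted p = 0.131) and S100a9 (0.27, adjusted p = 0.703) were not called, and the list median was -0.18. Over 6 defining markers, Cd177 included, the mean was -0.57 to -0.07 on NiO and -1.20 to -0.55 on C60 arrays, ranges that meet. Cd177 was the only 1 of the 6 called and was named for its size, so this mean does not speak for the others.

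Of the neutrophil-attracting CXC chemokines and their receptors, 4 of 8 tested were higher and 0 lower, with a median difference of 0.82. All NiO arrays lay above both C60 arrays for 6 of the 8, against 14.7 percent of all genes. Cxcl2 read -0.88, 0.03, 0.10 and -0.54 against -3.19 and -3.03 (2.79, SE 0.40; limma adjusted p = 0.000527). Cxcl1 read 2.95, 3.62, 3.57 and 3.49 against 1.35 and 0.79 (2.34, SE 0.34). The controls read 0.35 to 0.83 for Cxcl1, a range that holds the lower C60 array, and -4.02 to -3.41 for Cxcl2, below both groups. The receptor gene Cxcr1 was higher by 1.31 (SE 0.24) and Cxcl3 by 0.70 (SE 0.15). Without C60 array 1 the list had 2 called genes, and with all 4 C60 arrays 6.

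CC chemokines and their receptors were higher for 8 of 26 and lower for 1. Ccl22, a ligand of Ccr4 that attracts T cells, had the smallest adjusted p among them: it read -0.57, -0.81, -0.81 and -0.63 on NiO arrays and -3.49 and -3.49 on C60 arrays. The NiO arrays lay within 0.3 units of each other and the difference was 2.78 (SE 0.17; limma adjusted p = 6.26e-08, and 0.00586 in the fit of the 2 groups alone). Ccl17, the other Ccr4 ligand, read -1.76, -1.60, -1.56 and -1.41 against -4.00 and -3.49 (2.16, SE 0.24). Both C60 arrays lay below all controls for these genes (-3.28 to -2.84 for Ccl22 and -3.15 to -2.88 for Ccl17). The monocyte attractant Ccl7 read -1.43, -0.08, -0.75 and -0.72 against -3.19 and -4.04 (2.87, SE 0.44), with 1.76 from its second probe. Ccl2, the chief monocyte attractant, read 0.67, 0.97, 0.86 and 0.95 against -0.68 and -1.33 (1.87, SE 0.32). Ccl20 (1.33, SE 0.25) and Ccl3 (1.17, SE 0.26) were also higher. Ccl9 and Ccl12, not well above background on either C60 array, were at least 3.36-fold and 3.42-fold higher. The receptor gene Ccr1 was lower (-0.59, SE 0.17). That call was lost with all 4 C60 arrays, without C60 array 1 and without C60 array 2. The list had 12 genes called higher with all 4 C60 arrays and 5 or 4 without C60 array 1 or 2. Of 27 cytokine, growth factor and receptor genes, 3 were higher (11.1 percent) and 1 lower (3.7 percent), against 5.06 and 2.72 percent of all genes. Spp1, the decoy receptor gene Il1r2 (1.52, SE 0.27) and Tnf were higher and Il1rn, the interleukin 1 antagonist, was lower (-0.49, SE 0.14). Tnf was well above background on 2 NiO arrays and on no C60 array, so no size is given, and its sign turned when the negative control level was subtracted (-0.40, adjusted p = 0.268). Il1b was not called (0.25, adjusted p = 0.459).

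Promoter sequences of some chemokine genes called higher are shown as a description only. Chemokine genes are textbook targets of NF-kB, a transcription factor of inflammation, whose part here was not tested. RefSeq promoters of assembly GRCr8 (a window around the annotated start, most of it before the start) were at hand for 6 of the 8 CXC and 18 of the 26 CC genes. The NF-kB consensus was searched by that name on both strands. It was present in 2 of the 3 called CXC genes with a promoter (Cxcl1 and Cxcl2) and 0 of the 3 others, and in 2 of the 6 called CC genes (Ccl20 and Ccl9) and 0 of the 12 others, against 4.18 percent of 33469 promoters. A match is a string of letters, not a measured site. Capitals mark the match, and overlapping matches on the 2 strands are merged. The stretches are chr14:17479355-17479465 (minus strand) for Cxcl1, chr14:17467279-17467389 (minus strand) for Cxcl2, chr9:91837010-91837119 (plus strand) for Ccl20 and chr10:68868934-68869043 (minus strand) for Ccl9, with the match starting 84, 74, 89 and 106 bases before the start.
Cxcl1: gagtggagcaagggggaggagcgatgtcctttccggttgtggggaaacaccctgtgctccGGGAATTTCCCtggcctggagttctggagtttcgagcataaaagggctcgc
Cxcl2: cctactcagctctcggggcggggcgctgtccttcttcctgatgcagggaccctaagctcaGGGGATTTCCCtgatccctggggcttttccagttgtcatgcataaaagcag
Ccl20: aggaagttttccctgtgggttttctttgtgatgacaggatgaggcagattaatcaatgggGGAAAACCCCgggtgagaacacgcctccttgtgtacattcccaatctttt
Ccl9: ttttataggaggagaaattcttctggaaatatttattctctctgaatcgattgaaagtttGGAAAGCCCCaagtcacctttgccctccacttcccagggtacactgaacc
The AP-1 motif TGANTCA, which reads the same on both strands, was in 0 of the 3 called CXC promoters and 0 of the 3 others. It was in 1 of the 6 called CC promoters, that of Ccl7, in 0 of the 12 other CC promoters, and in 7.33 percent of all promoters. It starts 73 bases before the Ccl7 start in the stretch chr10:67513962-67514068 (plus strand).
Ccl7: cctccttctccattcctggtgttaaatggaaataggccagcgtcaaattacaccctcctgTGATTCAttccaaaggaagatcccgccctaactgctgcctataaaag

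The other named genes on the higher side belong to epithelium, secretion or no list. Slc26a4, the gene of the anion exchanger pendrin, read 4.01, 4.83, 4.92 and 4.75 on NiO arrays and 0.67 and 0.57 on C60 arrays (4.01, SE 0.42; limma adjusted p = 4.05e-05). It was the only 1 of 12 airway mucus and secretion genes called (8.33 percent, against 5.06 percent of all genes called higher). Mmp7, the epithelial protease matrilysin, read -1.31, -0.97, -1.52 and -1.15 against -5.17 and -5.41 and was at least 8.51-fold higher, since neither C60 array was well above background. With Mmp12 it led the matrix proteases and their inhibitors, 4 of 18 higher and 1 lower, where Mmp19 (0.84, SE 0.25) and Mmp14 (0.52, SE 0.13) were higher and Adamts5 was lower (-0.96, SE 0.23). The list had 2 genes called higher and 0 lower without C60 array 1, and the same without C60 array 2. It also had 2 called higher with quantile normalization, median scaling or normexp background correction. Bounds apply, as for Mmp7, to Dmkn, a secreted epithelial protein (at least 8.44-fold), Sdcbp2 (at least 2.76-fold) and Stra6l (at least 2.4-fold). They also apply to Itih1, a heavy chain that circulates in plasma and binds hyaluronan (at least 5.71-fold). Rnase9, an RNase A family member without catalytic activity, read -1.77, 0.28, -0.98 and -0.60 against -6.41 and -6.61 and was at least 11.8-fold higher. One control array read -4.19 for Rnase9 and the other 2 -7.19 and -7.00, so the clean air group was itself uneven. Of the 15 genes named on this side, 12 were called in the fit of the 2 groups alone and 15 with all 4 C60 arrays. In all 15 every NiO array lay above every control array, while both C60 arrays lay below all controls in 2 (Dmkn and Stra6l) and above them in 2 (Mmp7 and Cxcl2).

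**Figure D2:**
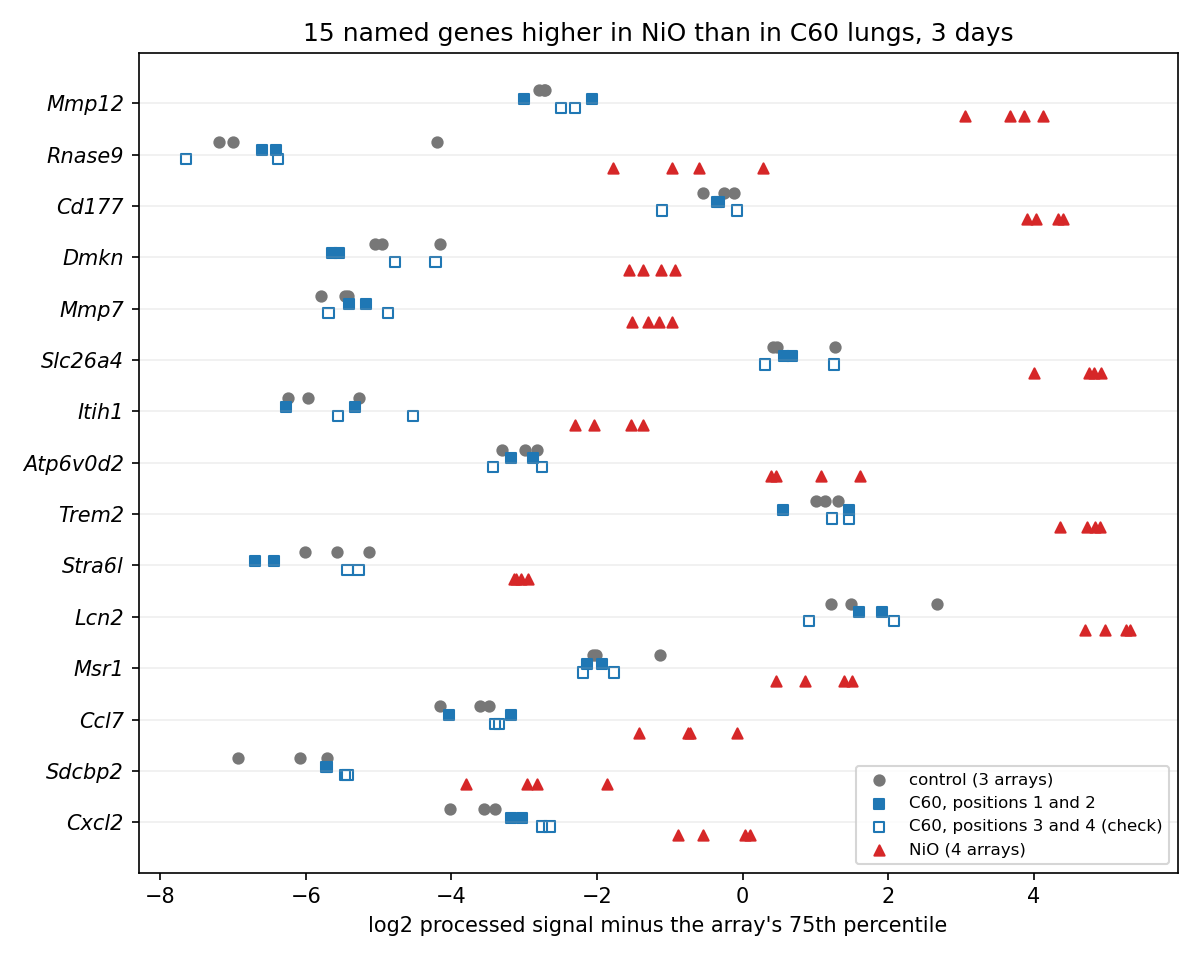
Values of the 15 genes named as higher in NiO lungs, 1 row per gene, with log2 signal minus the array's 75th percentile on the x axis. Triangles are the 4 NiO arrays, filled squares the 2 C60 arrays compared, open squares C60 positions 3 and 4 and circles the 3 clean air arrays. The NiO arrays lie to the right in every row of all C60 and clean air arrays.

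The probe of Mmp12 lies at chr8:4259057-4259413 of the rn4 build named in the scanner files, that of Cxcl2 at chr14:18677236-18677295 and that of Tac1 at chr4:32657311-32657369. Whether a probe lies in a coding or an untranslated exon was not analysed here.

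Complement genes were higher for 9 of 25 and lower for 0, with a median difference of 0.49. C3, the central component, read 6.15, 5.82, 5.90 and 6.31 against 4.19 and 4.26 (1.82, SE 0.29; limma adjusted p = 0.00134), and C4bpa, a regulator of C4, was higher by 1.82 (SE 0.24). The 3 chains of C1q were higher: C1qa by 1.18 (SE 0.20), C1qb by 0.76 (SE 0.12) and C1qc by 0.72 (SE 0.18). Cfb, factor B of the alternative pathway, was higher by 0.81 (SE 0.14). The count was 4 and 5 without C60 array 1 and 2.

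Nrf2 targets and antioxidant enzymes were higher for 9 of 35 and lower for 1, while the list median of 0.11 was close to that of all genes. Hmox1, the haem-degrading oxygenase, read 3.02, 3.03, 2.88 and 2.80 on NiO arrays and 1.47 and 1.24 on C60 arrays. Its NiO arrays were tightly grouped, the controls (1.31 to 1.53) lay at the C60 level, and the difference was 1.58 (SE 0.15; limma adjusted p = 2.94e-05, and 0.0453 in the fit of the 2 groups alone). Akr1b8, an aldo-keto reductase, read 2.57, 3.56, 3.65 and 3.54 against 1.64 and 1.43 (1.79, SE 0.29). Sod2 (0.93, SE 0.17), Prdx1 (0.85, SE 0.18), Me1 (0.80, SE 0.18), Txn1 (0.54, SE 0.13) and Txnrd1 (0.45, SE 0.12) were higher, and Srxn1 was at least 2.1-fold higher. Gsta3 was called too (1.57, SE 0.36), but its C60 arrays read 3.90 and 1.88 and overlapped the NiO range of 3.81 to 4.90. The gene called lower, Gclm, was not well above background on any of the 6 arrays, so no fold is given. Nqo1, a widely used Nrf2 target, was not called (-0.17, SE 0.13; adjusted p = 0.428). The list had 5 or 4 genes called higher without C60 array 1 or 2, and 8 called lower without NiO array 1.

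The core of the antioxidant response element, TGACNNNGC searched on both strands, was in 4 of the 8 called-higher genes of this list with a promoter (Gsta3, Me1, Prdx1 and Sod2) and in 6 of the 21 others, against 12.1 percent of all promoters. It can overlap the AP-1 motif, as it does in Prdx1. Prdx1 and Sod2 are shown as examples with the core before the start: chr5:135383711-135383819 (plus strand, core starting 135 bases before the start) and chr1:50050169-50050263 (minus strand, 35 bases before). Capitals mark the core, read here on the strand opposite to the gene.
Prdx1: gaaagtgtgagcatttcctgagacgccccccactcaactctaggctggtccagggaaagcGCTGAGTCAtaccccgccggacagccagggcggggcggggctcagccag
Sod2: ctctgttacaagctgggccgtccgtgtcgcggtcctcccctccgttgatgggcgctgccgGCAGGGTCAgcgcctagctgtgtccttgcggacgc

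Iron genes were called as well. Of 16 genes of haem and iron handling, 3 were higher (18.8 percent, against 5.06 percent of all genes) and 0 lower. The transferrin receptor gene Tfrc read 2.44, 2.91, 2.79 and 2.58 against 1.13 and 1.22 (1.51, SE 0.15; limma adjusted p = 4.04e-05). The ferritin light chain gene Ftl1 was higher by 1.06 (SE 0.15) and haptoglobin, Hp, by 0.84 (SE 0.19). Of 14 metallothioneins and metal transporters 2 were higher (14.3 percent) and 1 lower (7.14 percent, against 2.72 percent of all genes). Mt3, a metal-binding protein, was at least 1.36-fold higher, the zinc transporter gene Slc30a4 was higher by 0.71 (SE 0.16) and Slc39a2 was lower (-0.74, SE 0.22). Mt1, the main inducible metallothionein, was not called (-0.01, SE 0.21), and the list median was 0.00. This list had 1 gene called higher and 0 lower without C60 array 1, and the same without C60 array 2.

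Metabolic lists moved as well. Of 26 genes of cholesterol synthesis and uptake, 13 were higher and 0 lower, and the differences of all 26 were above 0. For 22 of the 26 every NiO array lay above both C60 arrays, against 14.7 percent of all genes. Hmgcs1, which makes the precursor of the mevalonate pathway, read 3.01, 4.22, 3.83 and 4.13 against 2.68 and 2.62 (1.15, SE 0.28). Mvd, a later step of that pathway, read 1.14, 1.40, 1.30 and 1.57 against 0.44 and 0.50 (0.88, SE 0.12; limma adjusted p = 0.000451). Fasn, the fatty acid synthase, was higher by 0.95 (SE 0.16) and Fdps by 0.94 (SE 0.18). The list mean was 1.16 to 1.43 on NiO, 0.62 and 0.70 on C60 and 0.75 to 0.80 on control arrays. Its count was 18 with all 4 C60 arrays, but 1 or 3 without C60 array 1 or 2, 6 without NiO array 2 and 5 without NiO arrays 2 and 3. It was 4 with median scaling, 1 in the fit of the 3 groups at 3 days and 0 in the fit of the 2 groups. The sterol response element, searched by name on both strands, was in 0 of the 18 promoters found for this list and in 0.765 percent of all promoters.

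Glycolysis and hypoxia targets were higher for 9 of 27 and lower for 0. The glucose transporter gene Slc2a1 read 2.06, 2.33, 2.38 and 2.51 against 1.14 and 1.29 (1.11, SE 0.13; limma adjusted p = 8.81e-05) and the lactate exporter gene Slc16a3 was higher by 1.53 (SE 0.22). Hk2, a hexokinase, was at least 1.9-fold higher, and Ldha, lactate dehydrogenase, was higher by 0.85 (SE 0.14). Genes of the unfolded protein response and amino acid stress were higher for 6 of 24 and lower for 0, led by the serine synthesis gene Phgdh (1.60, SE 0.22), Chac1 (1.17, SE 0.22) and Atf3 (1.03, SE 0.23). Without C60 array 1 and 2 those counts were 6 and 4 for glycolysis and 2 and 3 for the stress list, which had 14 without NiO array 1. With median scaling they were 4 and 2. Cell cycle and DNA replication genes were higher for 10 of 33 and lower for 1, with a median difference of 0.58: the cyclin genes Ccne1 (1.17, SE 0.19), Ccnb1 (0.94, SE 0.13) and Ccna2 (0.87, SE 0.14) were higher and Aurka, a mitotic kinase, was lower (-0.93, SE 0.11; limma adjusted p = 9.93e-05). For Ccna2 the NiO arrays read -1.44, -1.60, -1.53 and -1.48 and C60 positions 3 and 4 read -1.61 and -1.77, much nearer to them than C60 arrays 1 and 2 (-2.50 and -2.26). The mean of the whole list was -1.82 to -1.39 on NiO arrays and -2.05 and -2.00 on C60 arrays 1 and 2. At C60 positions 3 and 4 it was -1.53 and -1.76, inside the NiO range. The cell cycle count was 5 without C60 array 1, 5 without C60 array 2 and 16 without NiO array 1. It was 3 with median scaling, 1 in the fit of the 3 groups at 3 days and 0 in the fit of the 2 groups. Of 24 genes of fatty acid oxidation 4 were lower and 0 higher, while 11 of the 24 differences were above 0 and the median was -0.08. The lower ones included Acot1 and Cpt1a (-0.55, SE 0.15), the gate of fatty acids into mitochondria. Without C60 array 1 or 2 the count was 2 or 1, without NiO array 2 or 3 it was 2, without NiO array 1 it was 7, and in the fit of the 2 groups alone it was 1.

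**Figure D3:**
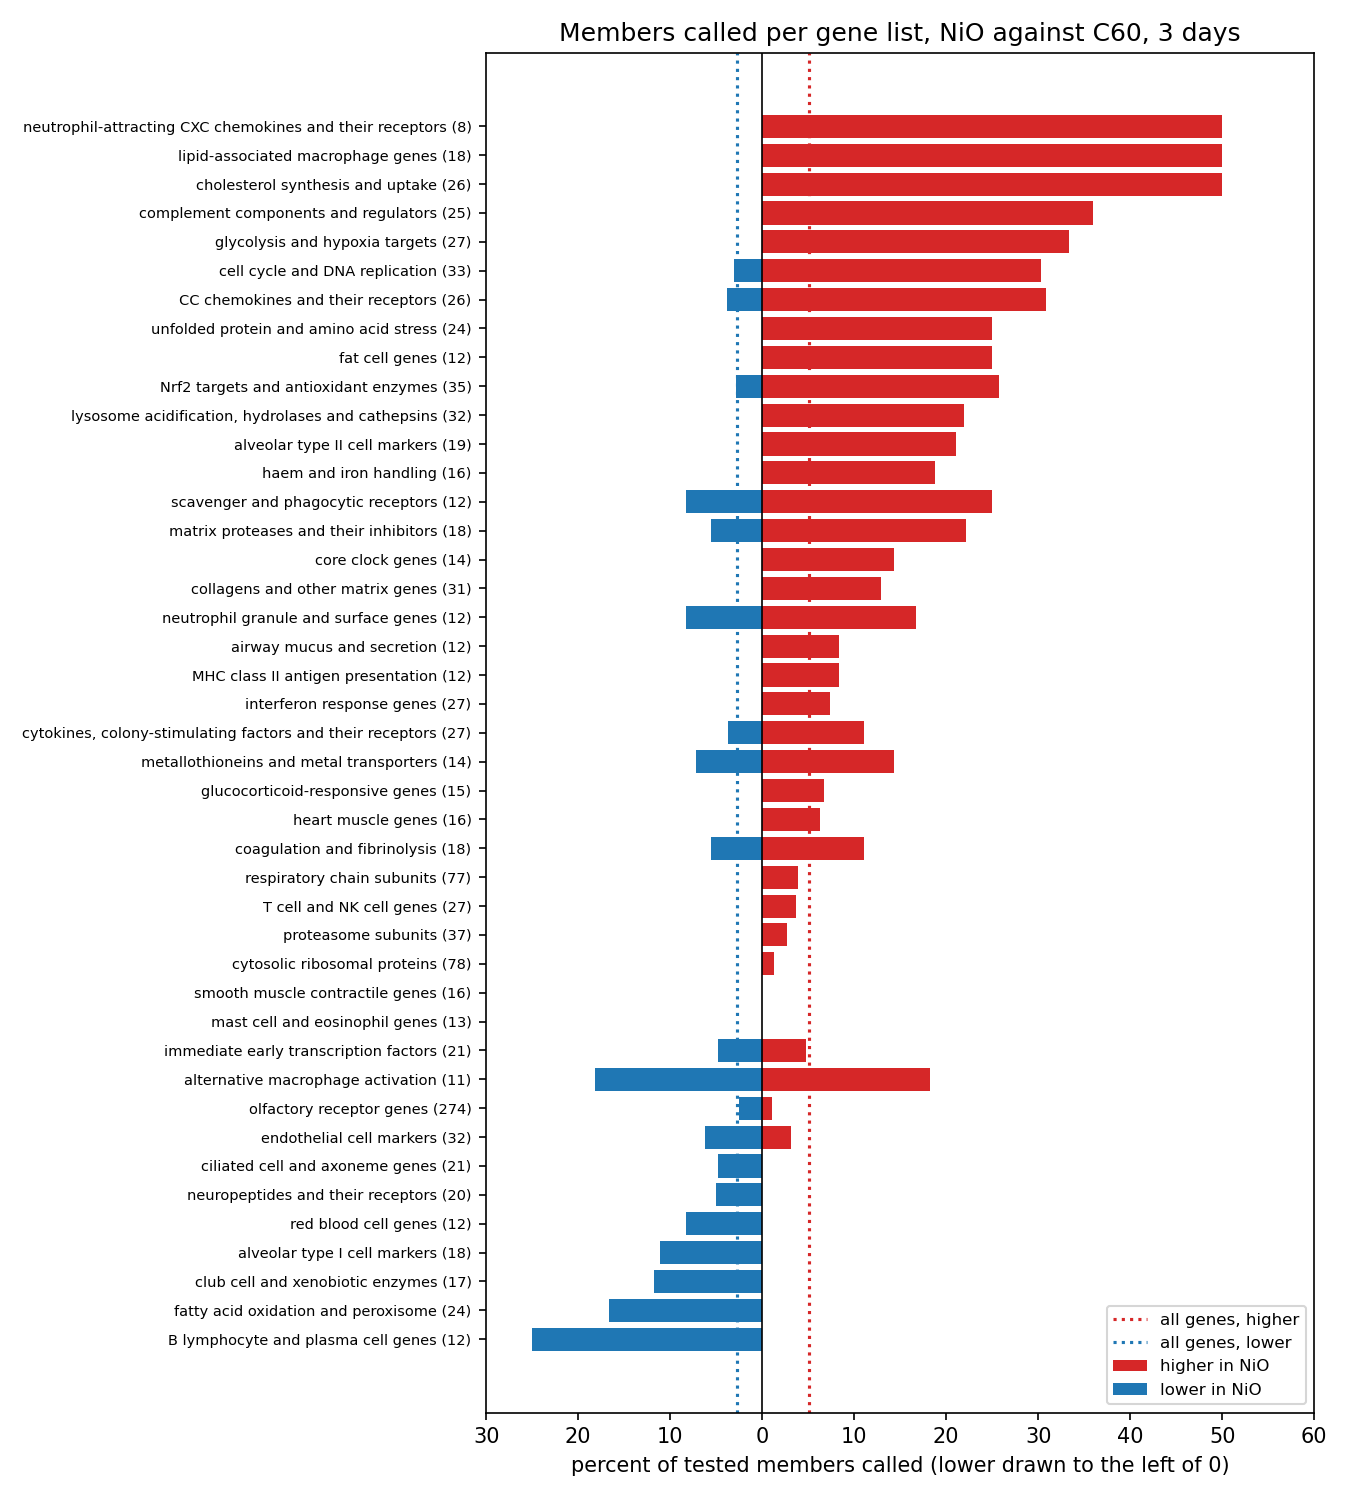
For each of the 43 gene lists, with the number of tested members in brackets, the bar to the right is the percent of members called higher in NiO lungs and the bar to the left the percent called lower. Dotted lines mark the share over all genes, 5.06 percent higher and 2.72 percent lower. The CXC chemokine, lipid-associated macrophage and cholesterol lists reach 50 percent, while cytosolic ribosomal proteins stay at 1.28 percent.

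On the lower side 1 gene stood far from the rest. Tac1, the precursor gene of substance P, a sensory neuropeptide, read -7.49, -6.41, -6.73 and -7.25 on NiO arrays and -0.72 and -0.36 on C60 arrays. No NiO array was well above background, both C60 arrays lay above all controls (-1.06 to -0.81), and C60 positions 3 and 4 read -0.34 and -0.87. Tac1 was at least 20.2-fold lower in NiO lungs (limma adjusted p = 4.94e-08, and 0.00544 in the fit of the 2 groups alone). With normexp background correction its log2 difference was -2.59. Tac1 was the only gene called among 20 neuropeptides and their receptors (5 percent, against 2.72 percent of all genes called lower).

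Serpinb10, a leukocyte serine protease inhibitor, read -1.22, -0.58, -0.25 and 0.13 against 2.93 and 3.38 (-3.64, SE 0.31; limma adjusted p = 7.95e-06). Fbp1, the gluconeogenic fructose bisphosphatase, read -2.77, -2.97, -2.05 and -1.90 against 0.12 and 0.82 (-2.89, SE 0.36), with -2.16 from its second probe. The C-type lectin gene Clec2l read -1.13, -1.03, -0.69 and -0.85 against 0.28 and 0.86 (-1.50, SE 0.19). In these 3 genes the controls lay near the C60 arrays (2.57 to 2.77 for Serpinb10, -0.41 to 0.98 for Fbp1 and 0.29 to 0.70 for Clec2l), and the NiO arrays were the ones that stood off. Csprs read -7.21, -6.09, -6.00 and -6.87, never well above background, against -3.79 and -3.18, and was at least 2.63-fold lower. With normexp background correction its call was lost (adjusted p = 0.0591). The angiotensin receptor gene Agtr1b (-1.53, SE 0.27), the leukocyte surface gene Cd101 (-1.51, SE 0.25) and the receptor gene Gpr18 (-1.16, SE 0.17) were lower by similar amounts, each with all NiO arrays below all controls. Agtr1b was well above background on 2 of 4 NiO arrays and was not called with normexp (adjusted p = 0.169). Ppfia4, a liprin gene, differed by -1.02 (SE 0.16), but its 2 other probes gave -1.58 and 0.03.

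In a second set of genes the C60 arrays stood above clean air, and the NiO arrays lay at or near the clean air level. Acot1, a cytosolic thioesterase of fatty acyl-CoA, read -1.43, -1.29, -1.21 and -0.48 on NiO arrays, 1.43 and 1.60 on C60 arrays and -1.29 to -0.59 on controls. C60 positions 3 and 4 read 1.60 and 1.37, so all 4 C60 arrays stood together (difference -2.62, SE 0.42; limma adjusted p = 0.00137). F2r, the thrombin receptor gene, read -5.80, -5.36, -5.94 and -5.48 on NiO arrays, none of them well above background, against -3.47 and -3.33, and was at least 2.79-fold lower, with controls from -6.95 to -5.93. Its call was lost with normexp (adjusted p = 0.151), although C60 positions 3 and 4 also read high (-3.12 and -2.90). Ergic2, of the endoplasmic reticulum to Golgi route, read -2.95, -2.61, -2.44 and -2.40 against -1.17 and -1.15 (-1.44, SE 0.15; limma adjusted p = 4.05e-05), with controls at -3.12 to -2.73 and C60 positions 3 and 4 at -0.82 and -0.98. Zfp36, whose protein destabilises inflammatory mRNA, read -1.92, -2.72, -2.98 and -2.43 against -1.10 and -0.98 (-1.48, SE 0.28), and its controls (-2.45 to -2.23) lay inside the NiO range. Acot5 (-1.20, SE 0.15) and Ripor2 (-1.05, SE 0.14) also had C60 above all controls on the named probe, with the NiO arrays of Acot5 just below the controls, but their other probes gave -0.03 and -0.14. Cyp2e1, a cytochrome P450 of xenobiotic metabolism, differed by -1.78 (SE 0.36), with 0.67 and 0.12 on C60 arrays, 0.71 and 0.62 at C60 positions 3 and 4, -1.12 to -0.27 on controls and -1.76 to -0.99 on NiO arrays. Of the 15 genes named on this side, both C60 arrays lay beyond the control range in 11 and all NiO arrays in 10. All 15 were called with all 4 C60 arrays, but 4 in the fit of the 2 groups alone. NiO against control and C60 against control share the control arrays, so these placements are given side by side and not tested.

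**Figure D4:**
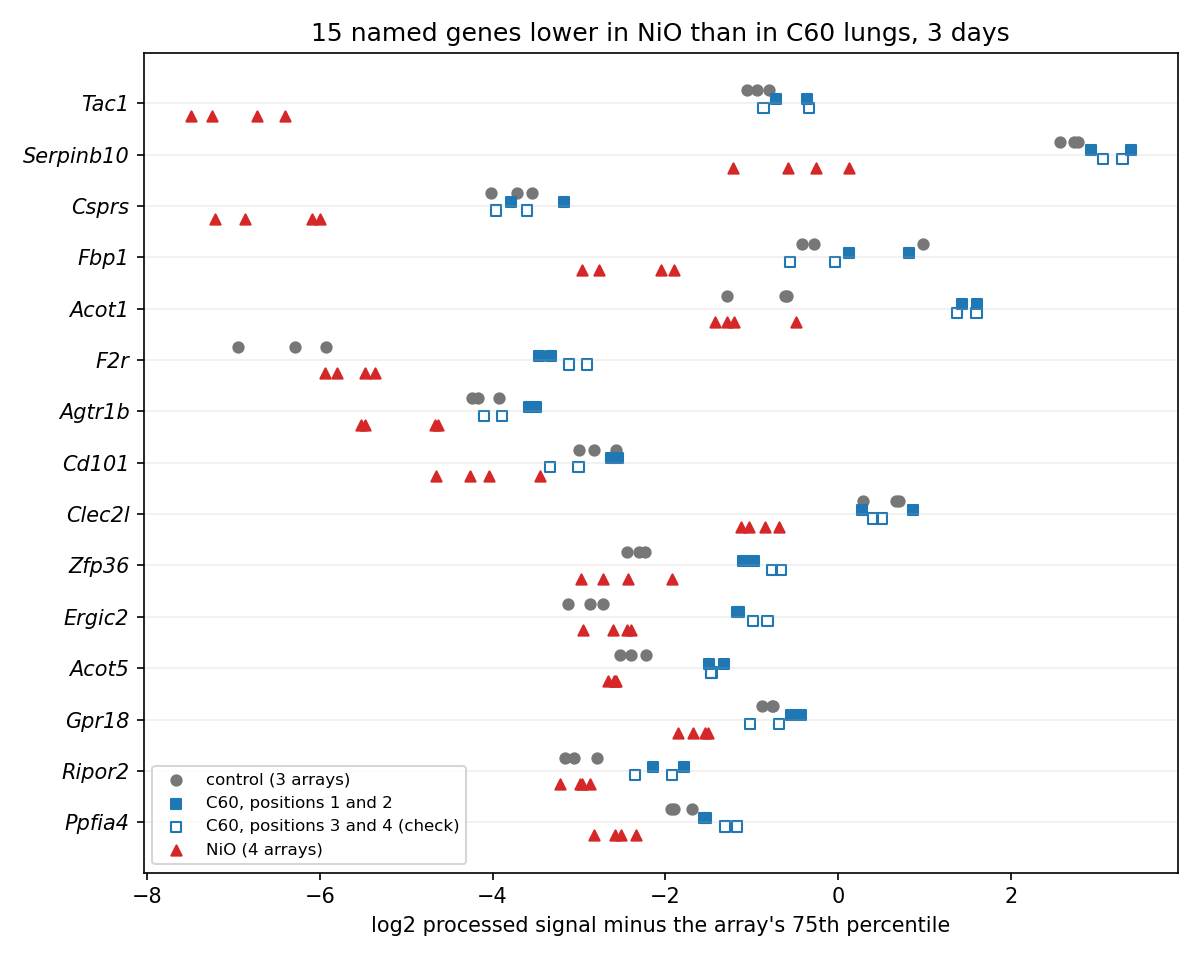
Values of the 15 genes named as lower in NiO lungs, drawn as log2 signal minus the array's 75th percentile with the same symbols as for the higher genes. For Tac1, Serpinb10, Csprs, Fbp1 and Clec2l the triangles (NiO) lie left of all circles (clean air) and squares (C60). For Acot1, F2r, Zfp36 and Ergic2 the squares lie right of all circles and triangles.

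Calls in lists of lung cell types are set beside the shares of all genes, 5.06 percent higher and 2.72 percent lower. Of 19 alveolar type II genes 4 were higher (21.1 percent) and 0 lower. But 1 of the 4 is Rnase9, which is no marker of these cells, and without it 3 of 18 were higher (median difference 0.45). The count of 4 was 2 without C60 array 1, 8 without NiO array 1 and 11 with all 4 C60 arrays. The last 2 fits called 28.3 percent of all genes either way and 14.5 percent of all genes higher. The 3 were the surfactant protein genes Sftpd (0.76, SE 0.17) and Sftpa1 (0.70, SE 0.15) and the lamellar body gene Lamp3 (0.76, SE 0.12). Lamp3 read 4.94, 5.02, 5.16 and 4.95 against 4.14 and 4.37, while for Sftpa1 (8.03, 8.66, 8.71 and 8.26 against 7.63 and 7.80) NiO array 1 lay at the control level (7.98 to 8.03). The surfactant gene Sftpc was not called (0.51, adjusted p = 0.0943). Alveolar type I genes were lower for 2 of 18 (11.1 percent) and club cell and xenobiotic genes for 2 of 17 (11.8 percent). Ciliated cell genes were lower for 1 of 21 (4.76 percent), and endothelial genes for 2 of 32 (6.25 percent) with 1 higher. Without C60 array 1 no gene of these lists was called lower. The endothelial median was -0.28. The receptor gene Tie1 (-1.10, SE 0.31) read 0.15, -1.27, -0.94 and -0.50 on NiO arrays, lowest on arrays 2 and 3, against 0.52 and 0.40 on C60 arrays. Without NiO arrays 2 and 3 no endothelial gene was called, and without NiO array 1 14 were lower, in a fit that called 10.6 percent of all genes lower. Collagens and other matrix genes were higher for 4 of 31 and lower for 0, with Col1a1 at 5.84, 6.02, 6.04 and 6.07 on NiO arrays, 5.46 and 5.44 on C60 arrays and 5.81 to 6.07 on controls (0.54, SE 0.11). For Col1a1 the C60 arrays were the low ones. The count was 2 without C60 array 1, 0 without C60 array 2, 1 with normexp, 1 with quantile normalization and 0 with median scaling.

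Markers of fat and heart muscle, which a dissected lung can carry along, and of B cells were counted too. Fat cell genes were higher for 3 of 12, with a median difference of 1.53. Their mean was -0.69 and -1.57 on C60 arrays 1 and 2, 0.20 and 0.10 at C60 positions 3 and 4, -0.20 to 0.56 on NiO arrays and -0.87 to 0.64 on controls, and with all 4 C60 arrays 1 was called. Without C60 array 1 no fat cell gene was called, nor without C60 array 2, and without NiO array 2 or 3 it was 1. Fabp4, counted in the macrophage list, is also a fat cell gene and followed this order (NiO 1.32, 1.46, 1.17 and 0.84, C60 -0.13 and -0.92, positions 3 and 4 at 0.84 and 0.96). Heart muscle genes were called higher for 1 of 16 (Myh7, 0.91, SE 0.26), a share near that of all genes, with a median difference of 0.72 at 3 days and -0.73 at 1 month. For 12 of the 16 every NiO array lay above both C60 arrays, against 14.7 percent of all genes. Their mean was 1.12 to 1.27 on NiO arrays, 0.52 and -0.06 on C60 arrays, 0.99 and 0.61 at C60 positions 3 and 4 and 0.85 to 1.51 on controls. Without NiO array 1, 8 were called higher, and with all 4 C60 arrays 3. Those fits called 28.3 percent of all genes either way and 14.5 percent of all genes higher. B lymphocyte and plasma cell genes were lower for 3 of 12, among them Cd22 (-1.50, SE 0.29) and Cd79b (-0.85, SE 0.22). Their list mean was -2.13 to -2.01 on NiO arrays, -1.57 and -1.70 on C60 arrays, -2.03 and -2.27 at C60 positions 3 and 4 and -2.52 to -1.73 on controls. Without C60 array 1 no B cell gene was called, and without C60 array 2, 2 were. The part of these cells in the results was not tested.

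At 1 month 307 genes were called between NiO and C60 lungs (1.23 percent), 209 higher (0.837 percent) and 98 lower (0.392 percent), on 8 other arrays. Of the 1942 genes called at 3 days, 132 (6.8 percent) were called in the same direction at 1 month, which is 43 percent of the 307, and 1 was called in the opposite direction. Macrophage genes were among those called again. Mmp12 was higher by 3.37 (SE 0.57; limma adjusted p = 0.00558), Atp6v0d2 by 3.19 (SE 0.28), Trem2 by 2.91 (SE 0.32) and Slc26a4 by 2.85 (SE 0.35) at 1 month. Of the 15 genes named as higher, 12 were called at 1 month in the same direction, as were 7 of the 18 lipid-associated macrophage genes. Fbp1 (-2.84, SE 0.30), Clec2l (-1.36, SE 0.15), Csprs (-2.02, SE 0.28) and Serpinb10 (-1.56, SE 0.25) were lower at 1 month, as was Tac1. These are 5 of the 15 genes named as lower.

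The NiO minus C60 difference itself differed between the times for 118 genes (0.473 percent), 69 of them higher (0.276 percent) and 49 lower (0.196 percent) at 3 days. Chemokines were among them. The difference for Ccl22 went from 2.78 at 3 days to 0.14 at 1 month (change 2.64, limma adjusted p = 1.7e-05), for Ccl17 from 2.16 to -0.07 (adjusted p = 0.00582), for Cxcl2 from 2.79 to 0.11 (adjusted p = 0.0273) and for Ccl7 from 2.87 to 0.24 (adjusted p = 0.0486). Of the 26 CC genes 1 was called higher at 1 month. The cholesterol list had 1 of 26 called at 1 month, with a median of 0.00, and Mvd changed between times (0.88 to 0.11; adjusted p = 0.0406). Among the genes with both C60 arrays above all controls at 3 days, the difference changed for F2r (adjusted p = 0.0114; no size is given, since its NiO arrays were dim at 3 days), Ergic2 (-1.44 to -0.05; adjusted p = 0.00623), Acot5 (-1.20 to -0.22; adjusted p = 0.0296), Ripor2 (-1.05 to -0.06; adjusted p = 0.0179), Gpr18 (-1.16 to 0.23; adjusted p = 0.0114) and Serpinb10 (-3.64 to -1.56; adjusted p = 0.0272). Acot1 (-2.62 to -0.35) missed the threshold for the change (adjusted p = 0.0728). Ccr1, named after its values were seen, turned from -0.59 to 0.69 (change -1.27, limma adjusted p = 0.0172), but its call at 3 days was lost with all 4 C60 arrays. The slides of 3 days were scanned on 1 day of the 2 scan days in all, and the part of scan day was not tested. The count was 2816 without NiO array 1 of 3 days, and 48 to 183 without any other 1 array, lowest without NiO array 2 of 1 month.

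**Figure D5:**
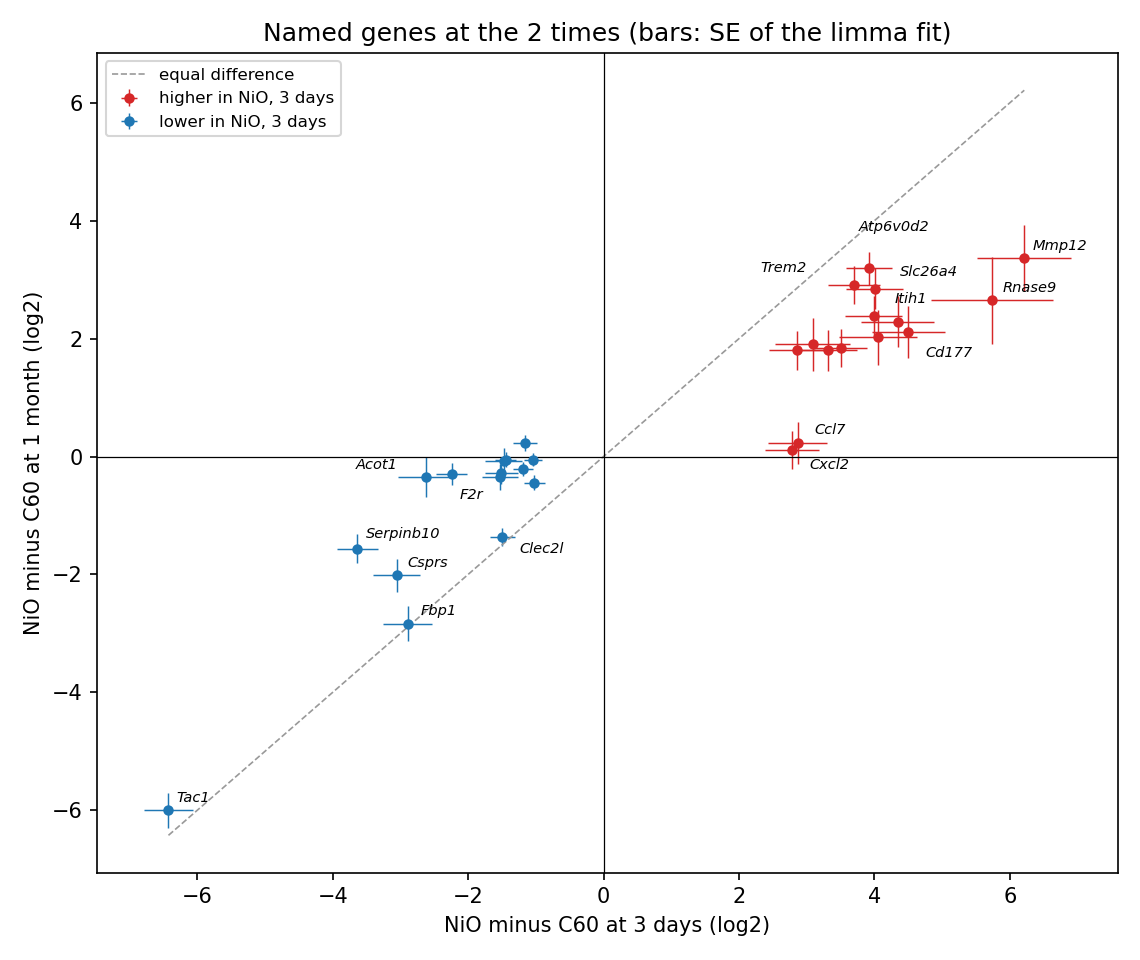
NiO minus C60 difference at 3 days (x axis, log2) and at 1 month (y axis, log2) for the 30 named genes, with bars for the SE of the limma fit. Red points are genes named as higher and blue points genes named as lower at 3 days, and the dashed line marks equal differences. All red points lie below the line, Fbp1 lies near it, Tac1 had no NiO signal clear of background at 3 days, and Ccl7 and Cxcl2 lie close to 0 at 1 month.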

How the data were processed

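Per the file headers, Feature Extraction 9.5.3.1 (protocol GE1-v5_95_Feb07) turned each Cy3 scan into a processed intensity, deposited by the authors with background subtracted. The authors' deposited value table of a linear ratio per probe and group served to see which C60 arrays entered it and as an alternative value for 129 genes, of which 104 stayed within the spread between replicates and 25 moved beyond it, none with a change of sign. C60 positions 1 and 2 matched it within 0.00082 log2 units (median over 20357 probes) and all 4 arrays within 0.109. From the intensity, control spots and spots marked as outliers were left out, spots of a probe were averaged, and log2 minus the array's 75th percentile was taken over 41012 probes. Probes well above background on every array of at least 1 group were kept (28677), and the brightest probe of a gene was used, giving 24971 features (13572 with a symbol, named through the RefSeq gene table of GRCr8). Where no accession matched, the name in the array's design was matched to current and then to older symbols of that table. It was kept as it stood where neither matched. Cd177, Dmkn, Msr1, Cd101, Ergic2 and Ripor2 were named through an older symbol.

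Differences were fitted with limma 3.58.1 in R 4.3.3 over 6 groups and 21 arrays (15 residual degrees of freedom). A fold is given as "at least" where no array of the dimmer group was well above background. Values of that group were raised to the lowest signal well above background on their array, where they lay below it. The bound applies to the processed signal only. With normexp and its offset of 50 the log2 difference was 1.88 for Mmp7, 1.61 for Itih1 and 2.65 for Rnase9. Named genes were the 15 highest and 15 lowest called, with no overlap between groups, well above background on all arrays of the higher group and called whichever array was left out, without provisional symbols, plus up to 4 called members of each of 43 lists. Further members were named after their values were seen. The arrays compared and the lists were chosen with earlier results of these data known. A few genes are not reported here. Promoters were those of RefSeq, and no genome or protein sequence was used. Alternatives covered scaling, background correction, filters, arrays left out and other fits.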

Additional observations from a re-analysis of the deposited data

Results flagged for a closer look

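For C4bpa, NiO array 1 of the 3-day slide read 3.95, far from the other 3 (4.70 to 4.79), and for Akr1b8 it read 2.57 against 3.54 to 3.65. These were 2 of 129 genes looked at for a single distant array, a pattern that chance gives in about 1 in 20 groups. The part of NiO array 1 as a whole was not tested.

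The NiO minus C60 difference changed between 3 days and 1 month, by limma's test of the change itself, for 17 of the 129 genes looked at, and for Ccr1 (-1.27), named after its values were seen. The share over all genes was 0.473 percent. But the 129 genes were chosen by their 3-day difference, which is part of this change, so the 2 shares cannot be compared. It was larger at 3 days for Cxcl2 by 2.68, for Ccl22 by 2.64, for Ccl7 by 2.63, for Ccl17 by 2.23, for Myh7 by 1.71 (from -0.79 at 1 month), for Nr4a3, an immediate early transcription factor, by 1.70, for Tfrc by 0.99, for Lum by 0.95 and for Mvd by 0.77. It was lower at 3 days, with a change of -2.07 for Serpinb10, -1.95 for F2r, -1.39 for Ergic2, -1.39 for Gpr18, -1.14 for Aurka, -0.99 for Ripor2, -0.98 for Acot5 and -0.86 for Il1rn. Slide and group cannot be told apart in any of these.

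C60 positions 3 and 4, not used in the fit, had 78.1 and 76.5 percent of spots well above background, against 63.5 to 66 percent on the clean air arrays and 57.4 and 60.7 percent on C60 positions 1 and 2.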

How the results depend on the processing

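At 3 days the count of 1942 called genes became 5946 with all 4 C60 arrays, 1061 with normexp background correction, 1107 with the negative control level subtracted, 1249 of fewer genes when probes had to be well above background on every array, 8417 with array weights (which gave NiO array 1 a weight of 0.12), 206 in a fit of the 3 groups at 3 days and 48 in a fit of the 2 groups. Removing NiO arrays 2 and 3 at once, chosen after seeing the data, gave 740, and the count was 443 to 7058 without any 1 array. With the slide mean as the unit, over both times, limma called 0 genes on 2 residual degrees of freedom (571 at an unadjusted p under 0.05). At 1 month the count of 307 became 197 with no filter on dim probes and 135 to 342 without any 1 array. The 118 genes that changed between times became 382 with all 4 C60 arrays, 54 with normexp, 73 with no filter, 73 with the stricter filter and 48 to 2816 without any 1 array. The sign turned with the negative control level subtracted for Tnf (-0.40), Foxp3 (-0.38) and Or10ac1 (-0.24), all called higher,, and for Rhag (-1.26) with normexp (0.12) and with the mean over its probes (0.084). The causes were not tested. The other settings kept these counts within 1.5 times. Of the 1942 genes, 841 were also called with normexp and 1577 with quantile normalization. No paired analysis was possible because the labels number no replicates across groups. The number of C60 arrays and the signal of dim probes over background limit the precision.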

Other observations

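Of 78 cytosolic ribosomal protein genes 1 was called higher, of 37 proteasome subunit genes 1 and of 77 respiratory chain subunit genes 3, shares below the 5.06 percent of all genes. With all 4 C60 arrays these counts were 40, 22 and 26, against 14.5 percent of all genes called higher in that fit. Olfactory receptor genes, most of them dim, were higher for 3 (1.09 percent) and lower for 7 (2.55 percent) of 274 tested, against 5.06 and 2.72 percent of all genes. Interferon response genes were higher for 2 of 27 (7.41 percent), MHC class II genes for 1 of 12 (8.33 percent) and T and NK cell genes for 1 of 27 (3.7 percent). These shares lay near the 5.06 percent of all genes, and without C60 array 1 no gene of these 3 lists was called.

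Among clock genes the repressor gene Bhlhe41 read 3.78, 4.45, 4.77 and 4.50 on NiO arrays and 2.65 and 2.96 on C60 arrays, with a difference of 1.57 at 3 days and 1.40 at 1 month. Bhlhe40 was the other of 2 called among 14 (14.3 percent, against 5.06 percent of all genes called higher).

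Probes with no gene name in the table used here were among the largest differences. They are given as probe identifiers, chosen after their values were seen. A_44_P829197 read -4.22, -4.37, -3.53 and -4.49 on NiO arrays and 0.73 and 0.84 on C60 arrays, and C60 positions 3 and 4 read 1.73 and 0.96. For A_44_P464482 the C60 arrays disagreed with each other: positions 1 and 2 read -2.26 and -2.12 and positions 3 and 4 read -5.13 and -5.56, while NiO arrays read -7.19 to -5.15 and controls -7.03 to -5.22.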
